A study of Mus musculus with 16 samples.

Results

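The nuclear-encoded subunits of the respiratory chain were followed in mouse ventricles across the first weeks after birth. They were taken as the protein-coding genes whose symbols begin with Nduf (assembly factors of the Ndufaf type left out), Uqcr, Cox4 to Cox8 or Atp5, or are Sdha, Sdhb, Sdhc or Sdhd. This gave 87 of the 53801 genes in the count table: 40 of complex I, 4 of complex II, 8 of complex III, 18 of complex IV and 17 of complex V. Another 11 genes with matching symbols were not protein-coding, had at most 4 counts each over all libraries and were left out. The samples were ventricular tissue of untreated pups of the inbred strain C57BL/6JOlaHsd, collected at postnatal day 1, 4, 9 or 23 (P01, P04, P09 and P23). There were 4 animals per day and 1 small RNA library per animal. According to the study's methods, P01, P04 and P09 pups had mother's milk only, while P23 pups could also eat general mouse diet. Age and diet therefore cannot be told apart in comparisons with P23. Male and female pups were used, and the labels do not give the sex of a sample. Libraries are named by day and by the animal number in the count table, which is not the replicate number of the labels. Later days were compared with earlier ones over all 6 pairs of days, so that comparisons with a day in common share its libraries.

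The respiratory chain sits in the inner mitochondrial membrane. Complex I (NADH dehydrogenase) and complex II (succinate dehydrogenase) pass electrons to ubiquinone, complex III (ubiquinol-cytochrome c reductase) passes them to cytochrome c, and complex IV (cytochrome c oxidase) passes them to oxygen. Complexes I, III and IV pump protons, and complex V (ATP synthase) uses the resulting gradient to make ATP. Most subunits are encoded in the nucleus and imported, a few are made in the mitochondrion from its own DNA, and complex II has no mitochondrially encoded subunit. Heart muscle is known to turn from glycolysis to fatty acid oxidation after birth. Some complex IV subunits exist as a heart and skeletal muscle isoform and a more widely expressed (liver-type) isoform, each from its own gene.

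The libraries were made for small RNA, so that the values below count fragments of the subunit mRNAs and not whole transcripts. Total counts per library were 2301587 to 5553530. Nuclear protein-coding genes held a median of 17.7%, 17.3%, 17.6% and 12.5% of them at P01, P04, P09 and P23, and mitochondrially encoded genes 19.3%, 23.1%, 26.4% and 42.4%. The 87 genes took 3.24%, 4.12%, 5.13% and 6.06% of the nuclear protein-coding counts on these days (medians), or 13205 to 51701 counts per library. Levels are given as CPM, counts per 1000000 counts of a library after TMM scaling over all genes. The 7 cardiomyocyte markers checked were all detected and summed to 5599, 6366, 8057 and 10188 CPM on average, with Myh7, the fetal myosin heavy chain, lower at each later day (4.82 CPM at P23, against 876 CPM at P01). Myh6 was higher at each later day (3298 CPM at P23, against 796 CPM at P01) and the largest of these markers at P23. The 5 erythroid markers summed to 1494 CPM at P23, against 357 CPM at P01, and the 5 leukocyte markers to 32.7 CPM at P23, against 11.2 CPM at P01. Of 3 leukocyte markers tested, 1 was called higher at P23 than at P01 (adjusted p under 0.01 and over 1.8-fold in edgeR, as for the members). Of all genes tested, 13.5% were called higher and 16.6% lower. The leukocyte sum rose mainly through Lyz2 (17.4 CPM at P23, against 3.32 CPM at P01) and Cd74 (5.7, against 0.564 CPM), while Csf1r was at 5.96, against 5.24 CPM. Of the 5 skeletal muscle markers, 2 were tested and both, Ckm and Acta1, were called higher at P23 than at P01. That list summed to 227 CPM at P23, against 94.0 CPM at P01, of which Myh1, Myh4 and Tnnt3 were at 0 to 1.07 CPM each in P23 ventricles. The 4 smooth muscle markers summed to 171 CPM at P23, against 88.4 CPM at P01 (2 of 3 tested called higher), the 6 fibroblast markers to 484 CPM at P23, against 435 CPM at P01 (2 of 6 called higher), and the 4 atrial markers to 73.7 CPM at P23, against 159 CPM at P01 (1 of 3 tested called lower). Fibroblast markers were highest at P09 (719 CPM). The 5 endothelial markers summed to 104 CPM at P23, against 93.3 CPM at P01. In bulk tissue a change in the number of cells of a type and a change in RNA per cell cannot be told apart, and the part of these marker changes in the results below was not tested. The chain's summed level divided by that of the cardiomyocyte markers averaged 1.07 ± 0.0557, 0.945 ± 0.0494, 0.949 ± 0.0923 and 1.03 ± 0.0934 at P01, P04, P09 and P23 (SD, n = 4 each), and the libraries of P23 (0.926 to 1.14) and P01 (0.992 to 1.11) overlapped. Divided by single markers the result varied: the ratio to Myl2, the ventricular myosin light chain, was 7.73 ± 0.377 at P23, against 5.31 ± 0.177 at P01, while the ratio to Ryr2, the calcium release channel, was 17.8 ± 4.01 at P23, against 25.6 ± 2.54 at P01. The ratio to Tnnt2 was 9.78 ± 0.870 at P23, against 8.33 ± 0.364 at P01. That to Actc1 was 4.06 ± 0.291 at P23, against 4.34 ± 0.313 at P01.

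After TMM scaling all complexes were higher at P23 than at any earlier day, with no overlap between the P23 libraries and those of any other day. This depends on the scaling: as a share of all counts the 87 genes took a median of 0.587%, 0.708%, 0.916% and 0.762% at P01, P04, P09 and P23, and the P23 libraries (0.686% to 0.912%) were above those of P01 (0.557% to 0.615%), overlapped those of P04 (0.600% to 0.739%) and lay mostly below those of P09 (0.873% to 0.939%). The TMM factors were 0.65 to 0.876 at P23, against 1.11 to 1.36 at P09, and the mitochondrial share was higher at P23, as given above. In CPM the 87 genes together summed to 10724, 9907, 10407 and 10554 CPM in the P23 libraries, against 6159, 6070, 6118 and 5673 CPM in the P01 libraries. At P04 they were at 6269, 6734, 5198 and 5862 CPM, and P04 replicate 4 was the lowest library of the series. At P09 they were at 6911, 8170, 7600 and 7837 CPM, above every P01 and P04 library. In mean CPM the chain had a ratio of 1.00 between P04 and P01, with overlap, although its median share of nuclear protein-coding counts was 4.12% at P04, against 3.24% at P01. In CPM it was 1.27 times higher at P09 than at P04 and 1.36 times higher at P23 than at P09. Between P23 and P01 the mean sums differed 1.799-fold for complex I (3106 ± 112 against 1727 ± 58.5 CPM, SD, n = 4 each), 1.77-fold for complex II (496 ± 37.9 against 280.1 ± 24.6), 1.82-fold for complex III (1203 ± 40.6 against 662 ± 29.0), 1.76-fold for complex IV (2641 ± 93.9 against 1503 ± 65.9) and 1.61-fold for complex V (2953 ± 117 against 1834 ± 69.0). Scaled to nuclear protein-coding counts alone these ratios were 1.75, 1.72, 1.77, 1.71 and 1.57.

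**Figure D1:**
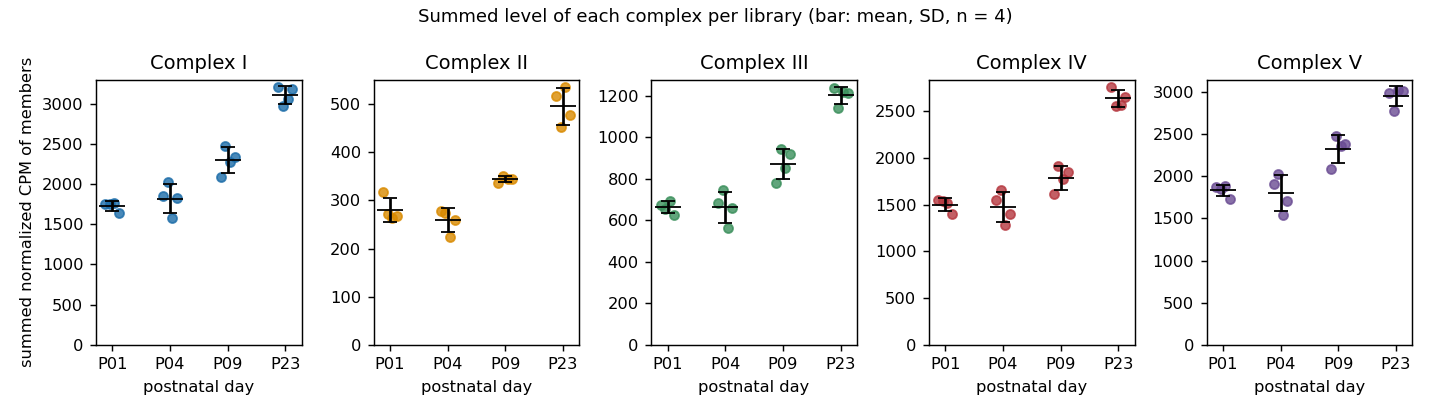
Summed CPM of the members of complexes I to V (y axes, each from 0) in the 16 libraries by postnatal day (x axis). Points are libraries and bars the mean with its SD. In each complex the 4 P23 libraries lie above all others, and those of P01 and P04 overlap.

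The complexes kept nearly constant proportions. Complex I held 28.8%, 30.3%, 30.1% and 29.9% of the members' summed CPM at P01, P04, P09 and P23 (means of 4 libraries), complex II 4.67%, 4.31%, 4.53% and 4.77%, and complex III 11.0%, 11.0%, 11.4% and 11.6%. Complex IV held 25.02%, 24.5%, 23.5% and 25.4%, lowest at P09, where its libraries (23.3% to 23.6%) lay below those of the other days (24.0% or more). Complex V held 30.5%, 29.9% and 30.5% on the first 3 of these days and 28.4% at P23, where its libraries (27.9% to 29.0%) lay below all others (29.2% or more). These are shares of counts and depend on transcript length, so that only their change over days can be read.

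Gene by gene, a member was called changed at an adjusted p under 0.01 and a fold change over 1.8 in edgeR's quasi-likelihood test, with p-values adjusted over all 10742 genes tested. Of the 87 members, 81 had enough counts to be tested. Between P04 and P01 no member was called, with 6 higher and 2 lower at an unadjusted p under 0.05 in edgeR and 0 called in DESeq2, and the background was 1.07% of all genes tested called higher and 4.13% lower (115 and 444 genes). At that unadjusted p, 1227 of the 10742 genes tested were higher and 1452 lower. The median log2 fold change of the members was 0.02. With an adjusted p under 0.05 and no fold threshold (below, the looser rule), Ndufb10 (log2 fold change 0.52) and Cox8b (0.40) were higher and Cox6a1 (-0.67) and Sdhb (-0.40) lower, 2 of 81 each way, where 4.68% of all genes tested were higher and 7.5% lower. Between P09 and P04 edgeR and DESeq2 again called 0 members, against a background of 1.4% higher and 3.71% lower, yet the median log2 fold change was 0.34, 79 of 81 values were positive and 55 were higher at an unadjusted p under 0.05. Among the 10742 genes tested, 5260 values were positive and 1385 were higher at an unadjusted p under 0.05. At an adjusted p under 0.05 with no fold threshold 30 of 81 members rose and 0 fell, where 6.64% of all genes rose and 8.28% fell. Cox8a came nearest to a call, with a log2 fold change of 0.77, and was called without P04 replicate 1 or without P09 replicate 2 (0.87 in each).

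Between P23 and P09 the members called were Cox7a1, Cox6a2 and Cox8b, 3 of 81 (3.70%), near the background of 4.76% of all genes called higher. All of them encode the muscle isoform of a complex IV subunit, and Cox8b lost its call when low counts were not filtered (0.84). At an unadjusted p under 0.05 in edgeR 2 members were lower, against 1834 of the 10742 genes tested. No member was called lower, while 5.55% of all genes were, and 0 members were called lower in DESeq2. The median log2 fold change was 0.41, and at an adjusted p under 0.05 with no fold threshold 52 of 81 rose (64.2%), against 12.7% of all genes tested, and 2 fell, Cox8a and Cox6a1, against 11.5%. By complex, 29 of 38 tested members of complex I rose by that rule, 3 of 4 of complex II, 6 of 8 of complex III, 7 of 14 of complex IV and 7 of 17 of complex V.

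**Figure D2:**
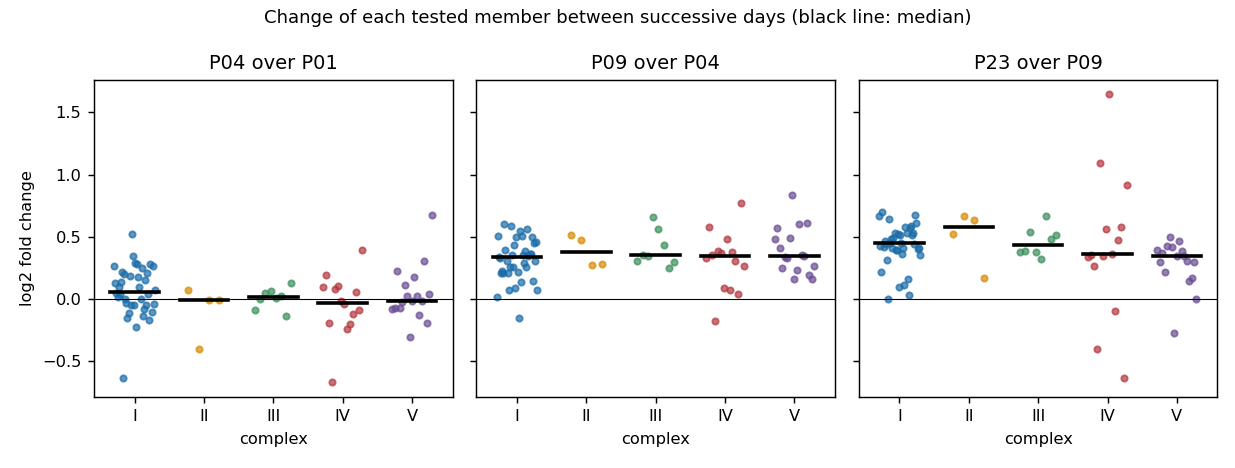
Log2 fold change (y axis) of each tested member between successive days, P04 over P01, P09 over P04 and P23 over P09, by complex (x axis). Points are genes and black lines medians. Values centre on 0.02 in the first step, 0.34 in the second and 0.41 in the third, where Cox7a1 stands highest at 1.65.

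Over the longer intervals more members passed the fold threshold. Between P23 and P01, 37 of 81 tested members rose (45.7%) and 1 fell (1.23%), where 13.5% of all genes tested rose and 16.6% fell. Their median log2 fold change was 0.80, against 0.00 for all genes. By complex, 20 of 38 tested members of complex I rose, 2 of 4 of complex II, 5 of 8 of complex III, 4 of 14 of complex IV, with 1 fall, and 6 of 17 of complex V, with medians of 0.91, 0.81, 0.91, 0.67 and 0.80. With an adjusted p under 0.05 and no fold threshold 72 rose and 1 fell (background 23.1% and 24.7%). Between P23 and P04, 29 rose and 0 fell by the first rule (background 9.55% and 12.6%), with 0 falls in DESeq2. At an unadjusted p under 0.05 in edgeR 1 member was lower, against 2671 of the 10742 genes tested. At an adjusted p under 0.05 with no fold threshold 73 rose and Cox6a1 fell (background 19.5% and 21.0%). Without P04 replicate 4 the rises numbered 23, and without P04 replicate 3 they numbered 38. Between P09 and P01, Ndufb10 and Atp5l rose, 2 of 81 against a background of 6.18% rising and 11.5% falling, and by the looser rule 42 rose and 2 fell (background 15.6% and 18.7%). No fall was called by the first rule in edgeR, and DESeq2 called 1, that of Cox6a1. In edgeR the log2 fold change of Cox6a1 (-0.84) lay just inside the fold threshold. At an unadjusted p under 0.05 in edgeR 2 members were lower, against 2417 of the 10742 genes tested. By overlap, 74 of 81 members had all 4 P23 libraries on 1 side of all 4 P01 libraries, and of these only Cox6a1 was lower. Of all genes tested 20.01% were higher and 21.7% lower without overlap. The highest daily mean was at P23 for 75 of the 81, and for 44 the mean was higher at each later day. These patterns were not counted over all genes tested, so how particular they are to the members is not known.

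**Figure D3:**
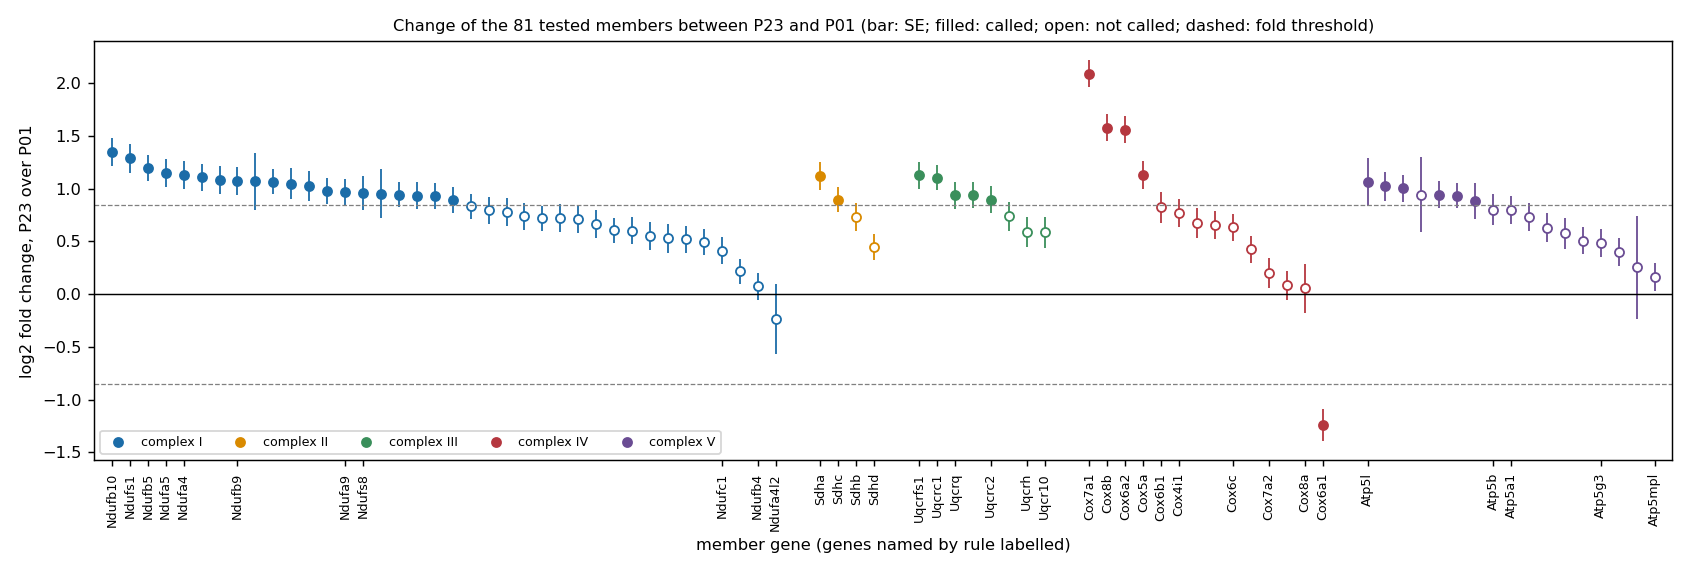
Log2 fold change of P23 over P01 (y axis) for the 81 tested members (x axis), ordered within each complex, with the genes named by rule labelled. Bars are standard errors, filled points genes called changed, open points genes not called, and dashed lines the 1.8-fold threshold. Most values lie between 0 and 1.35, with Cox7a1, Cox8b and Cox6a2 above and Cox6a1 at -1.24 the only called fall.

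In complex I the largest rise was that of Ndufb10, an accessory subunit of the membrane arm. Ndufb10 was at 98.3, 85.1, 100.4 and 96.4 CPM in P23 libraries, against 45.0, 36.8, 33.9 and 33.8 CPM in P01 libraries, and its log2 fold change was 1.35, with a standard error of 0.13 (edgeR adjusted p = 6.63e-10). It was also the only complex I member higher at P04 than at P01 by the looser rule: at P04 it was at 48.5, 61.8, 45.7 and 58.2 CPM, above all P01 libraries, and at P09 at 74.7, 74.5, 73.4 and 66.2 CPM. Ndufs1, the largest iron-sulfur subunit of the peripheral arm, was at 111, 92.6, 105 and 82.6 CPM in P23 libraries, against 45.0, 32.2, 41.4 and 40.9 CPM in P01 libraries (log2 fold change 1.29, standard error 0.14, adjusted p = 3.75e-09 from edgeR). Its P04 libraries (40.6 to 50.3 CPM) overlapped those of P01, so that its rise lay after P04.

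Ndufv2, which carries an iron-sulfur cluster of the peripheral arm, was not called between P23 and P01, at 0.83, and passed an adjusted p under 0.05 in edgeR. It was called with no filter on low counts (0.92) and without any 1 of P01 replicate 5, P01 replicate 6, P23 replicate 1, P23 replicate 6 and P23 replicate 8 (0.85 to 0.88). Ndufs8, which binds iron-sulfur clusters near the quinone site, had its larger value against P04 (1.06) rather than P01 (0.96).

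Among the accessory subunits, which carry no redox centres, Ndufb5 had a log2 fold change of 1.19, Ndufa5 of 1.15, Ndufb9 of 1.07 and Ndufa9, which lies near the quinone site, of 0.97 between P23 and P01, each called. Ndufc1, with Ndufb9 and Ndufa4 among the most counted members of the complex, was not called at 0.41. The value nearest to 0 was that of Ndufb4, a membrane arm subunit, with 43.1, 43.6, 39.4 and 55.1 CPM in P23 libraries, against 46.1, 42.7, 40.7 and 42.3 CPM in P01 libraries (0.07, standard error 0.13, adjusted p = 0.669 from edgeR). Its lowest values were at P09 (29.8 to 39.3 CPM), below all P01 libraries, and by the looser rule it was lower at P09 than at P01 (-0.38). Ndufab1, the mitochondrial acyl carrier protein, and Ndufb11 were called at 1.07 and 0.95, but with the widest spread of the called complex I members (standard errors 0.27 and 0.23). The call of Ndufab1 was lost on leaving out any 1 of 5 libraries (P01 replicate 1, 5 or 8 or P23 replicate 6 or 8; values 0.99 to 1.19 over all alternatives) and that of Ndufb11 without P01 replicate 1 or P01 replicate 5 (0.82 to 1.24 over all alternatives).

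Ndufa4 matches the pattern of complex I but is known as a subunit of complex IV. Ndufa4 was at 152, 146, 155 and 151 CPM in P23 libraries, against 67.0, 76.3, 65.0 and 67.9 CPM in P01 libraries (log2 fold change 1.13, standard error 0.13, adjusted p = 1.22e-08 from edgeR). Its hypoxia-inducible paralogue Ndufa4l2 was at 2.93, 3.73, 1.58 and 2.62 CPM in P23 libraries, against 4.03, 3.68, 3.08 and 2.13 CPM in P01 libraries, with overlap (-0.24, standard error 0.33, adjusted p = 0.578 from edgeR). Without this pair complex I had 19 rises among 36 tested members, and complex IV with the pair had 5 rises and 1 fall among 16. Of all genes tested, 13.5% rose and 16.6% fell.

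Complex II has 4 subunits, and all were higher at P23 than at P01 without overlap. Of the 10742 genes tested, 2150 were higher without overlap and 13.5% were called higher. Sdha, the flavoprotein that oxidizes succinate, was at 167, 145, 194 and 141 CPM in P23 libraries, against 87.5, 68.5, 72.2 and 69.3 CPM in P01 libraries (log2 fold change 1.12, standard error 0.13, adjusted p = 3.18e-08 from edgeR). Sdhb, the iron-sulfur subunit, was at 172, 153, 164 and 171 CPM in P23 libraries, against 115, 102, 88.3 and 92.8 CPM in P01 libraries, 0.73 (standard error 0.13, adjusted p = 2.44e-05 from edgeR) and so under the fold threshold. Sdhb was the only complex II gene lower at P04 than at P01 by the looser rule: its P04 libraries, at 78.3, 85.4, 62.4 and 74.4 CPM, lay below all P01 libraries, and against P04 its P23 value was called at 1.14. The membrane anchors differed in size of change, Sdhc with 95.6, 87.4, 90.9 and 91.5 CPM in P23 libraries, against 53.8, 46.0, 49.3 and 47.3 CPM in P01 libraries (0.89, called), and Sdhd with 83.6, 67.6, 86.4 and 73.8 CPM in P23 libraries, against 60.1, 56.1, 53.8 and 58.7 CPM in P01 libraries (0.45, not called). The call of Sdhc was lost after thinning all libraries to the depth of the shallowest (0.83).

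In complex III all 8 members were higher at P23 than at P01 at an adjusted p under 0.05, and 5 were called. Of all genes tested, 23.1% rose by the looser rule and 13.5% were called higher. Uqcrfs1, the Rieske iron-sulfur protein, was at 167, 167, 188 and 169 CPM in P23 libraries, against 80.6, 73.5, 80.5 and 81.8 CPM in P01 libraries (log2 fold change 1.12, standard error 0.12, adjusted p = 6.91e-09 from edgeR). Uqcrc1, a core protein, was at 155, 145, 154 and 141 CPM in P23 libraries, against 66.6, 76.8, 68.8 and 64.7 CPM in P01 libraries (1.10, standard error 0.12, adjusted p = 5.10e-09 from edgeR). Most of its change fell between P09 and P04, where its log2 fold change was 0.66, the largest of the complex in that step. The other core protein, Uqcrc2, and the small subunits Uqcrq and Uqcrb had values of 0.89, 0.94 and 0.93. Uqcrh, the hinge protein, and Uqcr10 had the smallest values, 0.59 each, with Uqcr10 at 97.5, 95.6, 107 and 112 CPM in P23 libraries, against 77.6, 68.0, 71.2 and 57.6 CPM in P01 libraries.

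Complex IV held both the largest rises and the only called fall, and these came from isoform genes. Cox7a1, the muscle isoform of subunit VIIa, was at 260.2, 231, 215 and 234 CPM in P23 libraries, against 54.6, 57.5, 56.8 and 51.9 CPM in P01 libraries (log2 fold change 2.09, standard error 0.12, adjusted p = 1.20e-14 from edgeR). At P04 it was at 51.5, 58.9, 54.0 and 50.4 CPM and at P09 at 73.0, 82.0, 72.2 and 73.3 CPM, so that most of its change lay between P23 and P09 (1.65, standard error 0.12, adjusted p = 1.06e-11 from edgeR). Its widely expressed counterpart Cox7a2 was at 226, 196, 214 and 232 CPM in P23 libraries, against 198, 192, 192 and 175 CPM in P01 libraries, with overlap (0.20, standard error 0.14, adjusted p = 0.245 from edgeR). Cox7a1 thus held 52.0% ± 2.10 of the counts of the pair at P23, against 22.6% ± 0.667 at P01 (SD, n = 4 each), with 25.3% ± 2.13 at P04 and 31.0% ± 2.76 at P09. The summed level of the pair was 452 ± 29.1 CPM at P23, against 244 ± 11.9 CPM at P01.

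The pair of subunit VIa moved in opposite directions. Cox6a2, the muscle isoform, was at 333, 322, 322 and 329 CPM in P23 libraries, against 113, 105, 112 and 113 CPM in P01 libraries (log2 fold change 1.56, standard error 0.13, adjusted p = 1.46e-11 from edgeR). Cox6a1, the liver-type isoform, was at 40.7, 40.8, 41.6 and 39.3 CPM in P23 libraries, against 91.2, 127, 89.0 and 78.2 CPM in P01 libraries (-1.24, standard error 0.15, adjusted p = 4.18e-08 from edgeR). Without P01 replicate 5, the highest of the P01 libraries, the fall was still called, as it was without each other library in turn. At P04 Cox6a1 was at 57.4, 66.6, 64.9 and 53.1 CPM, below all P01 libraries, a fall by the looser rule (-0.67). The P04 libraries of Cox6a2 (101 to 130.1 CPM) overlapped those of P01, and most of its change lay between P23 and P09 (1.10). The share of Cox6a2 in the counts of the pair averaged 53.8% ± 6.03, 65.9% ± 3.73, 74.1% ± 4.46 and 88.9% ± 0.337 at P01, P04, P09 and P23 (SD, n = 4 each). The P23 and P01 libraries did not overlap (88.6% to 89.3% against 45.1% to 59.1%), and neither did those of P04 and P01.

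For subunit VIII, Cox8b, the muscle isoform, was at 206, 201, 185 and 207 CPM in P23 libraries, against 72.1, 61.6, 64.7 and 69.3 CPM in P01 libraries (log2 fold change 1.58, standard error 0.13, adjusted p = 1.31e-11 from edgeR). Its medians were 86.0 CPM at P04 and 104 CPM at P09, higher at P04 than at P01 by the looser rule (0.40) and not past the test between P09 and P04 (0.26). Cox8a, the widely expressed isoform, was low throughout, at 6.92, 7.23, 12.0 and 7.87 CPM in P23 libraries, against 6.23, 8.73, 11.3 and 6.76 CPM in P01 libraries (0.05, standard error 0.23, adjusted p = 0.873 from edgeR). It was highest at P09, with 11.0, 12.7, 13.1 and 16.9 CPM, above all P04 libraries, and it was lower at P23 than at P09 at an adjusted p under 0.05 in edgeR (-0.63). Cox8b held 95.9% ± 1.33 of the counts of the pair at P23, against 89.0% at P01 (85.1% to 92.1% over 4 libraries). As shares of counts these values depend on the lengths of both transcripts, and only their change over days is read here. The widest 95% Wilson interval of a single library's share in these pairs reached 5.24 percentage points to either side of its middle and covers counting error only.

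**Figure D4:**
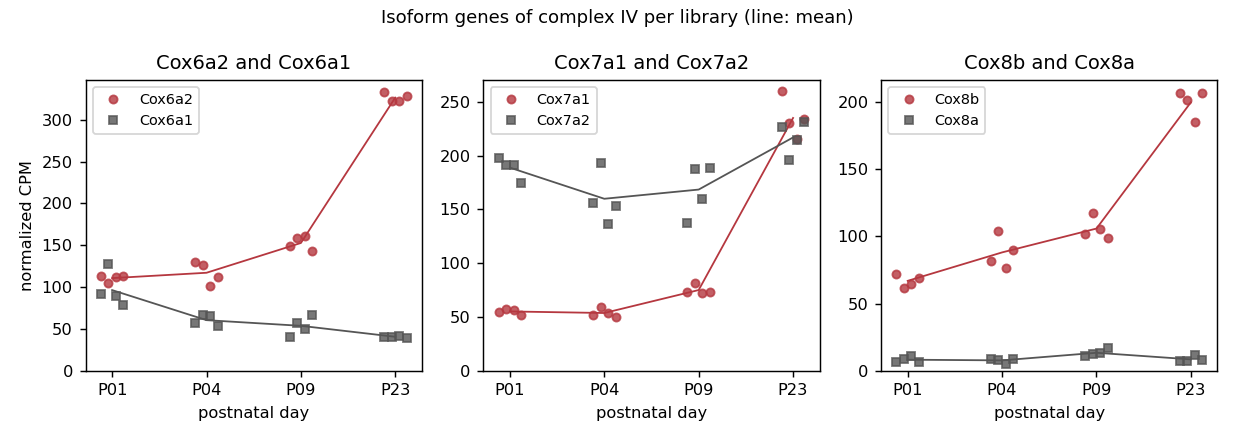
CPM (y axes, from 0) of Cox6a2 and Cox6a1, Cox7a1 and Cox7a2, and Cox8b and Cox8a in the 16 libraries by postnatal day (x axis). Points are libraries and lines join the daily means. The muscle isoforms Cox6a2, Cox7a1 and Cox8b stand at 185 to 333 CPM at P23, while Cox6a1 is at 39.3 to 41.6 CPM and Cox7a2 and Cox8a overlap their P01 levels.

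The windows around the starts of these isoform genes differ in their letters. Of the 87 members, 70 had a window in the RefSeq table of GRCm38.p6 (300 bases, 250 before the annotated start and 50 after it), and Cox6a2 was not among them. These 5 are shown because they are the windows of the called isoform genes that matched, of a partner that did not pass the test (Cox7a2), and of Atp5l, which holds 3 of the letter runs searched. Atp5k, whose window is not shown, holds the same 3 and was not called between P23 and P01. Letters were searched on both strands. Capitals mark matches, on either strand, to CATGCGC (a half-site of nuclear respiratory factor 1), CCGGAAG (ETS factors such as GABP) or AAGGTCA (estrogen-related receptors), and a match is only a run of letters. In Cox6a1 the run of 10 capitals holds CATGCGC on both strands, overlapping. Cox7a1 lies on chr7:30183921-30184220 (plus strand), Cox8b on chr7:140900397-140900696 (minus), Cox7a2 on chr9:79759804-79760103 (minus), Cox6a1 on chr5:115348909-115349208 (minus) and Atp5l on chr9:44920693-44920992 (minus), each printed 5′ to 3′ along the gene.
Cox7a1: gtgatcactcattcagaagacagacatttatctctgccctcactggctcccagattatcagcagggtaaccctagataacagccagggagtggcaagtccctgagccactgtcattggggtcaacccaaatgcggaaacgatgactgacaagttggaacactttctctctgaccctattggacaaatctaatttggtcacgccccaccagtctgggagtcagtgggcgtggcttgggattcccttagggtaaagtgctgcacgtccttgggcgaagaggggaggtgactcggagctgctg
Cox8b: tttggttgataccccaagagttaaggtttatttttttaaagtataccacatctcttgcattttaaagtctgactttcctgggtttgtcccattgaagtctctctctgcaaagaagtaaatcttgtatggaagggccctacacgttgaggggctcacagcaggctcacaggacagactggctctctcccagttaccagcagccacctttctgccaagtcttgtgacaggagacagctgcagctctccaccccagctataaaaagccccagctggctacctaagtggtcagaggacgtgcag
Cox7a2: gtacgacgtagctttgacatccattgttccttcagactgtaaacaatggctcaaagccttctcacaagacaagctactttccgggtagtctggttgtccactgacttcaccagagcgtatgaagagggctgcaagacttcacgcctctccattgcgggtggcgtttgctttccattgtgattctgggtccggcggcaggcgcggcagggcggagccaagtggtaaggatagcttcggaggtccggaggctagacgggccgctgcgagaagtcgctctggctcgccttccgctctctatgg
Cox6a1: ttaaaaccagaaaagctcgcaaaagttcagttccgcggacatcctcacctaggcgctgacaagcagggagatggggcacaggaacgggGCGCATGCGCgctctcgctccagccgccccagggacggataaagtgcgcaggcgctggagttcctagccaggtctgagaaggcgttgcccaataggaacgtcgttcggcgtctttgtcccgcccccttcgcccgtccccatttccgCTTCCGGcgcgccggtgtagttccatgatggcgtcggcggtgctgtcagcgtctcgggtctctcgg
Atp5l: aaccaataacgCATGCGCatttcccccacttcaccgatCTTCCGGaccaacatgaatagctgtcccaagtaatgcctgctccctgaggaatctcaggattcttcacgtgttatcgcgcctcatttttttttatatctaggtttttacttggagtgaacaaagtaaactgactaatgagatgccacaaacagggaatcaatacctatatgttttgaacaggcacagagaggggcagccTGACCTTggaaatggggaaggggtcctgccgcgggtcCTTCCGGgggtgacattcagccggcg

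None of the letter runs searched was found in the windows of Cox7a1, Cox8b or Cox7a2, and that of Cox6a1, the gene that fell, held CATGCGC and CCGGAAG. The window of Cox8a, which did not pass the test between P23 and P01, also held CCGGAAG. Over the 70 members, CATGCGC was in 13 windows (18.6%), against 4.89% of the 17492 protein-coding genes with a window and 4.04% of all 27025 genes with a window. CCGGAAG was in 15 (21.4%, against 11.9% and 9.12%), AAGGTCA in 8 (11.4%, against 4.08% and 4.66%) and ATGGCGG, a run bound by YY1, in 9 (12.9%, against 5.41% and 4.19%). ATGGCGG was in 8 of 34 windows of complex I and in 1 of complex V, and in 0 of the 21 windows of complexes II, III and IV. AAGGTCA was in 4 of 15 windows of complex V and in 0 of 18 of complexes III and IV. Among the 70 windows the number of CG pairs was lowest for Cox8b (2), Cox7b (5), Cox7a1 (7) and Ndufc2 (8), of which Cox7b and Ndufc2 are not muscle isoform genes. The members had a median of 19, and protein-coding genes with a window a median of 13.

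Other isoform pairs of the chain shifted little or had few counts. Cox4i1, the usual isoform of subunit IV, was at 332, 304, 302 and 328 CPM in P23 libraries, against 182, 191, 194 and 177 CPM in P01 libraries (log2 fold change 0.76, standard error 0.13, edgeR adjusted p = 1.53e-05), which was short of a call. Cox4i2, known as the lung and hypoxia isoform, had 3 to 12 counts in P23 libraries, against 2 or 3 counts in P01 libraries, and was not tested. Cox6b1 was at 144, 132, 157 and 133 CPM in P23 libraries, against 83.5, 64.8, 90.04 and 81.8 CPM in P01 libraries (0.82, not called), and was called without any 1 of P01 replicate 1, P01 replicate 6, P23 replicate 5 and P23 replicate 8 (0.86 to 0.90). Its testis-type isoform Cox6b2 had 1, 2, 1 and 0 counts in P23 libraries, against 10, 2, 5 and 2 counts in P01 libraries, and was not tested either. In P23 replicate 8, 0 of 406 counts of the pair were from Cox6b2, for which the 95% Wilson interval reaches up to 0.937%. Ndufa4l2 held 1.77% of the counts of its pair with Ndufa4 at P23, against 4.46% at P01, while its own level did not pass the test, as given above.

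Among complex IV members outside the isoform pairs above, 1 of 6 tested rose between P23 and P01 (16.7%, near the 13.5% of all genes tested). By the looser rule 5 of 6 rose (83.3%, against 23.1% of all genes tested). The member called by the first rule was Cox5a, which is needed for the assembly of the early complex, at 293, 292, 307 and 272 CPM in P23 libraries, against 146, 140.2, 132 and 115 CPM in P01 libraries (log2 fold change 1.13, standard error 0.13, adjusted p = 2.48e-08 from edgeR). Its P09 libraries, at 220.0, 237, 215 and 239 CPM, already lay above all P01 and P04 libraries. Cox6c, among the 3 most counted members of the complex, was at 323, 298, 288 and 323 CPM in P23 libraries, against 219, 205, 186 and 186 CPM in P01 libraries (0.63, not called). Cox5b, Cox7b and Cox7c had values between 0.42 and 0.68, each with an adjusted p under 0.05 in edgeR. Cox7a2l, a factor of respiratory supercomplexes rather than a subunit of the single enzyme, did not pass the test (0.08, standard error 0.13), with 28.0 to 32.5 CPM in P23 libraries, against 22.9 to 32.2 CPM in P01 libraries.

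In complex V the catalytic subunits rose by less than the fold threshold. Atp5a1, the alpha subunit, was at 554, 502, 576 and 535 CPM in P23 libraries, against 334, 310.3, 310.2 and 294 CPM in P01 libraries (log2 fold change 0.80, standard error 0.13, adjusted p = 9.48e-06 from edgeR). Atp5b, the beta subunit that makes ATP, was at 556, 492, 577 and 509.8 CPM in P23 libraries, against 312, 302, 317 and 296 CPM in P01 libraries (0.80, standard error 0.14, adjusted p = 2.83e-05 from edgeR). Between P23 and P01 both were called without P23 replicate 5 (0.85 each). Against P04, both were called at 0.87, and leaving out P04 replicate 4 ended both of these calls. Atp5b overlaps the small RNA genes Snord59a and Mir677 in RefSeq. Other members also overlap small RNA genes: Atp5c1 and Cox7c each a snoRNA, Ndufv2 a snRNA, Ndufa10 a miRNA and Ndufs7 a tRNA. How reads in overlapping genes were assigned is not known.

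The ring subunit c of ATP synthase is made from several genes that give the same mature protein. Atp5g3 was at 374, 356, 353 and 391 CPM in P23 libraries, against 276, 260.2, 264 and 254 CPM in P01 libraries (0.48, not called). Atp5g1 had a log2 fold change of 0.93 and was called, and its share in the counts of Atp5g1 and Atp5g3 was 22.1% ± 0.624 at P23, against 17.2% ± 0.851 at P01 (SD, n = 4 each), a pair chosen after the values were seen. Atp5g2 had at most 3.68 CPM in any library and a value of 0.25 (standard error 0.49).

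Atp5l, the subunit g of the membrane part, had the largest value of complex V: it was at 11.5, 12.1, 13.8 and 9.18 CPM in P23 libraries, against 4.39, 4.14, 6.85 and 6.76 CPM in P01 libraries (log2 fold change 1.06, standard error 0.23, adjusted p = 2.54e-04 from edgeR). Its P09 libraries, at 13.2, 9.54, 11.2 and 7.90 CPM, overlapped those of P23, and its call between P09 and P01 (0.92) was lost without P01 replicate 1, P01 replicate 5 or P09 replicate 2. The stalk subunits Atp5j and Atp5c1 (gamma), with Atp5f1 and Atp5h, were called at 1.02, 1.00, 0.94 and 0.88. Atp5h lost its call without P01 replicate 1, P01 replicate 5 or P23 replicate 8. Atp5mpl, a small membrane subunit, had the value nearest to 0, with 152, 124, 125 and 133 CPM in P23 libraries, against 123, 125, 112 and 116 CPM in P01 libraries (0.16, standard error 0.13, adjusted p = 0.319 from edgeR). Atp5s, a coupling factor and not a core subunit, was at 0.94 with an adjusted p of 0.0287 in edgeR and was not called.

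The 6 members left untested for low counts were Ndufs5 (91 counts over the 16 libraries), Cox6b2 (91), Cox4i2 (84), Ndufb4c (34), Cox7b2 (3) and Cox8c (0). Ndufs5 is a structural subunit of complex I, whereas Cox7b2 and Cox8c are known from testis. Several subunit genes have near-identical processed pseudogenes, and how reads that match several places were counted is not given, so that low levels of genes such as Ndufs5, Atp5l and Cox8a are uncertain.

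Other genes that serve the chain were counted by list. Of 14 tested genes of electron carriers (ubiquinone synthesis, cytochrome c, the electron transfer flavoprotein), 9 rose between P23 and P01 (64.3%, where 13.5% of all genes tested rose), with a median log2 fold change of 1.12. Coq8a and Coq10a, which act in the synthesis and handling of ubiquinone, had the largest values. Coq8a was at 66.6, 65.7, 74.0 and 57.7 CPM in P23 libraries, against 12.8, 16.5, 11.6 and 14.9 CPM in P01 libraries (2.24, standard error 0.15, adjusted p = 2.14e-13 from edgeR), and Coq10a had a value of 2.25. Cycs, cytochrome c itself, and Etfa rose by 1.36 and 1.37. Etfdh, which passes electrons from fatty acid oxidation to ubiquinone, was at 66.0, 63.6, 78.7 and 51.8 CPM in P23 libraries, against 22.0, 22.1, 23.3 and 27.4 CPM in P01 libraries (1.46). Unlike the 81 subunit genes, it was already called between P04 and P01 (0.99, standard error 0.15, adjusted p = 1.64e-05 from edgeR). Cyc1, the cytochrome c1 of complex III that the symbol patterns do not cover, had a value of 0.71 and was not called.

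Of 44 tested assembly factors of the complexes, 13 rose between P23 and P01 (29.5%, where 13.5% of all genes tested rose), with a median of 0.60. The largest values were those of Taco1 (2.08), a translational activator of the mitochondrial Co1 mRNA, Ecsit (1.61) of complex I, Coa5 (1.40) of complex IV, Ttc19 (1.35) of complex III and Sdhaf4 (1.31) of complex II. Many were low, Taco1 at 4.41 CPM on average at P23, against 1.05 CPM at P01. Coa4 (-1.24) and Timmdc1 (-0.62) were lower at an adjusted p under 0.05 in edgeR and were not called. Scaled to nuclear protein-coding counts alone, 1 assembly factor of complex IV was called lower. Of 3 genes tied to supercomplexes, Higd1a rose (1.48) and Higd2a (-0.02) and Cox7a2l (0.08) did not pass the test.

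The mitochondrially encoded subunits had larger values than the nuclear ones. Of 13 genes 8 were tested, 7 of them rose between P23 and P01 (87.5%, where 13.5% of all genes tested rose) and the median log2 fold change was 2.07. The largest were mt-Nd5 at 2.52, mt-Co1 at 2.42, mt-Nd3 at 2.32, mt-Nd2 at 2.09 and mt-Nd4 at 2.06, and mt-Nd6, the gene on the other strand of the mitochondrial DNA, had 0.29 (standard error 0.27) and was not called. The genes mt-Co2, mt-Co3, mt-Atp6, mt-Atp8 and mt-Nd4l averaged 1.86 CPM or less on each day and were not tested. How reads in overlapping genes or with several matches were counted is not given, so these low values are uncertain. The median above covers only the 8 tested genes. All values here are levels of fragments in libraries whose mitochondrial share also differed by day. The difference between nuclear and mitochondrial genes was not tested.

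**Figure D5:**
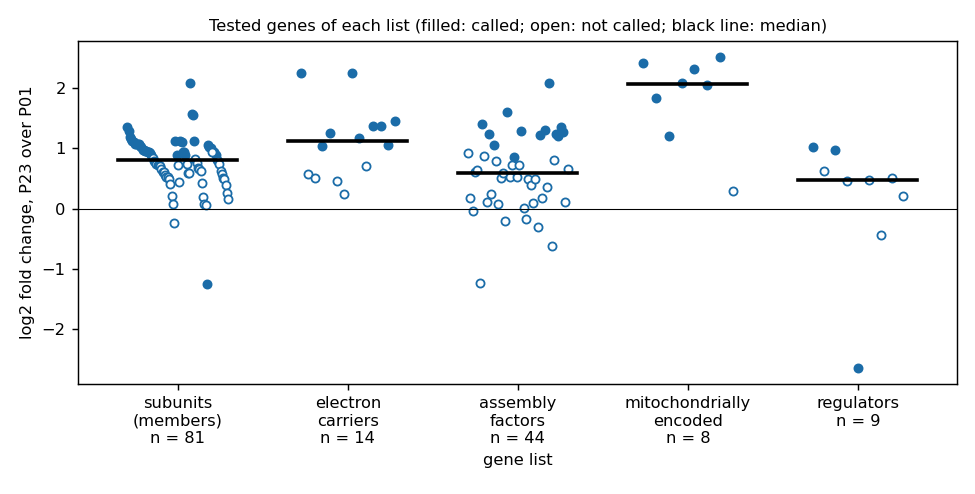
Log2 fold change of P23 over P01 (y axis) for tested genes of 5 lists (x axis): nuclear subunits, electron carriers, assembly factors, mitochondrially encoded subunits and regulators. Filled points are called genes, open points genes not called and black lines medians, at 0.80, 1.12, 0.60, 2.07 and 0.47.

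Of 9 regulators known to act on genes of the chain, 2 rose and 1 fell between P23 and P01 (22.2% and 11.1%), near the 13.5% and 16.6% of all genes tested. Esrra and Esrrg, the estrogen-related receptors alpha and gamma, rose by 1.02 and 0.98. Nrf1, nuclear respiratory factor 1, was at 3.99, 5.36, 5.88 and 7.21 CPM in P23 libraries, against 32.2, 46.0, 31.2 and 31.6 CPM in P01 libraries (log2 fold change -2.65, standard error 0.20, adjusted p = 1.56e-12 from edgeR), and was also called between P04 and P01 (-1.30). Ppargc1a (0.47), Ppargc1b (-0.43) and Tfam (0.51) passed an adjusted p under 0.05 in edgeR without the fold threshold, and Gabpa, Yy1 and Esrrb did not.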

How the data were processed

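Total RNA of ventricles was made into small RNA libraries with the SMARTer smRNA-Seq kit, which tails RNA 3′ ends and carries no molecular identifiers. According to the submitters' notes and the methods, the authors used bcl2fastq for demultiplexing, Trimmomatic for trimming, STAR for alignment to GRCm38.p6 and featureCounts for counting. The deposited values are raw counts. Not given in the sources used here are tool versions, the strand setting and the treatment of reads in overlapping genes or with several matches. Of the value columns, 16 matched the samples' days by name and 1 was not used. Ensembl IDs were given symbols from a gene table (53620 of 53801), and 3 members were matched to RefSeq by an older symbol.

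Counts were tested with edgeR 4.0.16 (limma 3.58.1, R 4.3.3): TMM factors, filterByExpr (minimum count 10, minimum total 15, 10742 genes kept), glmQLFit with robust estimation over all 16 libraries, glmQLFTest and Benjamini-Hochberg adjustment, with the study's thresholds. Standard errors are the fold change (log2) divided by the square root of F. Sums and shares are descriptions, with 95% Wilson intervals for shares. Libraries of a day differed by more than sampling noise in all 24 pairs, with a chi-square over its degrees of freedom of 4.23 to 22.0. Alternatives were DESeq2 1.42.0, RLE factors, scaling by nuclear protein-coding genes, no filter, fits of 2 days, thinning to 2301587 counts, a looser call rule and leaving out each library. The fit was tested on simulated data first. Tables and figures were made in Python 3.11.15 with pandas 2.3.3, matplotlib 3.10.9, scipy 1.17.1 and numpy 2.4.6.

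The members, lists and tests were chosen with earlier results of these data known. Genes named were members of isoform pairs, complex II, members called between successive days, the 10 largest called rises and falls of the longer intervals, the 3 most counted and the least and most changed members of each complex and, from other lists, up to 5 called genes. Other genes named, the Atp5g1 share, the count of CG pairs and the ratios to cardiomyocyte markers were chosen after the values were seen. Some results are not reported here. Promoter sequences are RefSeq's (GRCm38.p6), 1 window per gene.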

Additional observations from a re-analysis of the deposited data

Results flagged for a closer look

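In each group of 4 libraries the highest and lowest value was set against the others by Dixon's test, over 204 groups (named members, sums of complexes and isoform shares by day). It marked 18 of them, and chance marks about 1 in 20 groups. Several rest on the same library or the same gene.

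At P01, P01 replicate 5 had the highest Cox4i2 level (1.38 CPM, against 0.685 to 0.732 CPM in the others) and share of its pair (0.716%, against 0.351% to 0.401%), both from 3 counts, and the lowest Cox6a2 (105 CPM, against 112 to 113 CPM) and Uqcrfs1 (73.5 CPM, against 80.5 to 81.8 CPM). P01 replicate 8 was lowest for Ndufb9 (60.8 CPM, against 80.2 to 82.5 CPM) and for the sum of complex I (1640 CPM, against 1747 to 1766 CPM). P01 replicate 1 was highest for the sum of complex II (317 CPM, against 264 to 272 CPM) and lowest for the share of Cox7a1 (21.6%, against 22.9% to 23.1%). At P04, P04 replicate 1 was lowest for Ndufa4l2 (1.26 CPM, against 2.28 to 2.34 CPM) and P04 replicate 4 for Ndufb4 (32.7 CPM, against 37.8 to 38.2 CPM).

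At P09, P09 replicate 4 was highest for Cox6b2 (3.03 CPM, against 1.34 to 1.495 CPM) and its share (2.66%, against 1.17% to 1.38%), P09 replicate 3 was highest for Cox7a1 (82.0 CPM, against 72.2 to 73.3 CPM), P09 replicate 2 lowest for Ndufa5 (74.3 CPM, against 87.4 to 88.8 CPM) and P09 replicate 5 lowest for Ndufb10 (66.2 CPM, against 73.4 to 74.7 CPM). At P23, P23 replicate 6 was highest for Uqcrfs1 (188 CPM, against 167 to 169 CPM) and lowest for the share of Cox8b (93.9%, against 96.3% to 96.8%), and P23 replicate 5 was lowest for the sum of complex V (2778 CPM, against 2994 to 3022 CPM).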

How the results depend on the processing

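No named gene called in a comparison changed sign under any alternative. The 825 values over named genes also cover genes not called between P23 and P01, whose sign was not checked. Of the 38 calls between P23 and P01, 28 were kept under every alternative with the same call rule and 4 were lost on leaving out 1 library. Of the 29 between P23 and P04, 18 were kept and 7 were lost on leaving out 1 library. With an adjusted p under 0.05 and no fold threshold, 2 rose and 2 fell in P04–P01, 30 rose in P09–P04 and 52 rose and 2 fell in P23–P09. By the same rule 42 rose and 2 fell in P09–P01, 73 rose and 1 fell in P23–P04 and 72 rose and 1 fell in P23–P01. With no filter on low counts, which changes the genes that enter the scaling, 1 rose in P09–P04 (Cox8a), 9 rose in P09–P01, 2 rose in P23–P09, and Cox6b2 was called lower in P23–P09 (1 fall), P23–P04 (1) and P23–P01 (2 falls with Cox6a1). In P09–P01, 1 rose after thinning, and Cox6a1 was called as 1 fall under RLE factors, nuclear protein-coding scaling, a fit of the 2 days, thinning and DESeq2. The cause of these shifts was not tested. Leaving out each library in turn gave 0 to 1 rises in P09–P04, 2 to 4 rises (4 without P09 replicate 2) and 0 to 1 falls in P09–P01, 3 rises in P23–P09, 23 to 38 rises in P23–P04, and 35 to 40 rises and 1 fall in P23–P01. The ratio of the summed chain, P23 over P01, was 1.70 to 1.76, and the share of Cox6a2 at P23 minus that at P01 was 32.2 to 36.8 percentage points. Scaling by nuclear protein-coding genes shifted the median of all genes by at most 0.04 (log2). No paired analysis was possible because each pup was sampled on 1 day only. Libraries could not be matched by replicate number either, because the count columns carry animal numbers and not the labels' replicate numbers. Thinned to the shallowest library, 31 rose in P23–P01 and 23 in P23–P04.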
